A study of Mus musculus with 35 samples.

Results

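Colons of conventional and of axenic (germ-free) mice given dextran sulfate sodium (DSS) were compared, using 10 of the 35 arrays of the study. The conventional group held the 5 arrays whose titles name DSS and wild-type, and the control group the 5 whose titles name axenic DSS controls. Conventional wild-type mice drank 3% DSS for 5 days and then water. Axenic controls drank the same DSS, which their label dates before the transfer of microbes. The sources do not say if flora was later given to them, so they may or may not have been germ-free at collection. The conventional mice also carry a characteristic that places them after a transfer of wild-type microbes, while their titles and the design text describe ordinary DSS-treated mice, and these were followed. Colons were collected on day 12, and the labels give the strain C57BL/6N for both groups and no sex, age, cage, facility, batch or date. No allele or transgene is named for either group. Microbial history, breeding and housing therefore cannot be told apart.

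Each title carries its own number, and the numbers were taken as separate mice (WT52, WT53, WT55, WT56 and WT65, conventional; CT093, CT229, CT465, CT517 and CT677, axenic controls). Values for single mice are given in these orders throughout. Total RNA of whole colon was hybridised to Mouse Gene 1.0 ST arrays of Affymetrix, and all levels are log2 signal, on which 1 unit is a doubling. In whole tissue, fewer cells of a type and less RNA per cell cannot be told apart. The mean level of 13 colon epithelium markers was 10.83 to 11.79 in conventional mice and 10.25 to 11.3 in axenic controls, and that of 21 smooth muscle genes was 9.204 to 9.962 in conventional mice and 9.168 to 9.846 in axenic controls. Mucosa and muscle were thus both measured in each group.

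The arrays differed in ways that touch the results. The SD of signal within an array averaged 1.875 in conventional mice and 1.727 in axenic controls. Bright genes read higher and dim genes lower in conventional mice, with a median log2 difference of 0.352 in the 4977 genes with the highest mean signal and -0.186 in the 4977 with the lowest. After another quantile normalization these medians were -0.0157 and 0.00348. WT55 stood apart, with a mean correlation of 0.941 to the other arrays of its group, against 0.964 to 0.974 for the other conventional mice and 0.954 to 0.973 for axenic controls. Its within-array SD was 1.714. Xist, transcribed in female cells, read 10.86, 11.19, 5.38, 4.79 and 4.93 in conventional mice, against 4.97, 5.08, 4.95, 5.24 and 4.84 in axenic controls, so that WT52 and WT53 alone were high. The groups differed by 2.41 (SE 1.25, adjusted p = 0.2) in Xist.

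DSS strips and injures the surface epithelium of the colon, and the mucosa then heals over the days that follow. Gut microbes reach the injured surface and are sensed by epithelial and immune cells. The epithelium answers microbes with secreted antimicrobial proteins, with enzymes that make hydrogen peroxide, and with mucus and surface sugars, and mice raised without microbes are known for low levels of several of these. In healing mucosa, wound-associated epithelial cells spread over the ulcer bed before crypts form again.

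Promoter windows are shown for the genes that lead the comparison, because 2 of them form a divergent pair and 2 are neighbouring relatives. RefSeq windows of GRCm38.p6, 250 bases before to 50 after the gene start, were found for 5 of 6 such genes. Reg3b lies at chr6:78370635-78370934 (plus strand), Reg3g at chr6:78468825-78469124 (minus), Plet1 at chr9:50494275-50494574 (plus), Duox2 at chr2:122298178-122298477 (minus) and Duoxa2 at chr2:122298650-122298949 (plus). The Duox2 and Duoxa2 starts, on opposite strands, were 673 bp apart, and those of Reg3b and Reg3g 97989 bp. Capitals mark matches on either strand to TATAAA, to the STAT motif TTCNNNGAA or to the NF-kB motif.
Reg3b: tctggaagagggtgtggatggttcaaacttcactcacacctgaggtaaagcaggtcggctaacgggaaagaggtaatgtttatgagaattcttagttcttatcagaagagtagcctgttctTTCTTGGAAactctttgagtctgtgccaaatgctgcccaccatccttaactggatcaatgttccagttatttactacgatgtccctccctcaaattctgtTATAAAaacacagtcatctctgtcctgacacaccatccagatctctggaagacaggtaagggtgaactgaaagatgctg
Reg3g: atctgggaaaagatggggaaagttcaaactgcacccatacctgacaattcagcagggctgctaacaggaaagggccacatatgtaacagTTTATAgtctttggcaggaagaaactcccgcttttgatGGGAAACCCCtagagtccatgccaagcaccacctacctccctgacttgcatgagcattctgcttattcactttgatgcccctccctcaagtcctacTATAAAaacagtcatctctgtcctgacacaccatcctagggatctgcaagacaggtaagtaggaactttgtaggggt
Plet1: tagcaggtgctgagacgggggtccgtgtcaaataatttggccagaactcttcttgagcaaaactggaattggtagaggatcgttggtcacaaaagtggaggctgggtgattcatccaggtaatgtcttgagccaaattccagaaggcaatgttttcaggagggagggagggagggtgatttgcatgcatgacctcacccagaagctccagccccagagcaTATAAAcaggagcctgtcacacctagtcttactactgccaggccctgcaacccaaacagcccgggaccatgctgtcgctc
Duox2: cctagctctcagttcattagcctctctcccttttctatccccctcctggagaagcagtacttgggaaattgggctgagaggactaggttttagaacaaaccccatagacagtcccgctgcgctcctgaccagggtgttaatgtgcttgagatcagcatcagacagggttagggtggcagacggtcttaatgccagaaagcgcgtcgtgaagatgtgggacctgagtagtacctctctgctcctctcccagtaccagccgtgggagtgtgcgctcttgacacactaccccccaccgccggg
Duoxa2: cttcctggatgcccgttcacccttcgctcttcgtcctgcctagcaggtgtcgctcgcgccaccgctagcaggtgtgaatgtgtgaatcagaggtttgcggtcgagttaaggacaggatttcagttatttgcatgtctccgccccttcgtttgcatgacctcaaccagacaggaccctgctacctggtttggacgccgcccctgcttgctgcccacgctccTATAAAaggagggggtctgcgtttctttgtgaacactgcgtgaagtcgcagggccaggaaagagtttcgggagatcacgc
Counted from 0 at the gene start, TATAAA began at -29 in Reg3b, -27 in Reg3g, -30 in Plet1 and -30 in Duoxa2, and its reverse complement lay at -161 to -156 in Reg3g. The STAT motif lay at -129 to -121 in Reg3b and the NF-kB motif at -123 to -114 in Reg3g, each on both strands, and none overlapped another motif. The Duox2 window held none of these letters. Of all 32851 windows, 13.6% held TATAAA, 8.3% the STAT motif and 8.46% the NF-kB motif.

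Conventional mice had far more called rises than falls. Of 19908 genes, 127 (0.638%) passed an adjusted p of 0.05 in limma, of which 119 (0.598%) were higher and 8 (0.0402%) lower in conventional mice. Among them 90 were at least 2-fold higher and 2 at least 2-fold lower. At an unadjusted p under 0.05 there were 2908 higher and 3115 lower genes, so the excess of rises held for the strongest calls and not for the whole table. Of the 119 rises, 100 lay among the 4977 genes with the highest mean signal. After another quantile normalization 126 genes were higher and 50 lower. In 880 genes (4.42%) the 5 mice of each group did not overlap, 447 (2.25%) higher and 433 (2.18%) lower. All 127 called genes were among these, so a lack of overlap adds nothing to a call.

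The counts depended on single mice. Without WT55, 7398 genes (37.2%) were called, 3799 (19.1%) higher and 3599 (18.1%) lower, and all 127 genes were among them. Without any 1 of the other mice, 37 to 110 were called, and 36 genes were called in all 10 fits that left out 1 mouse. Without the 2 mice with high Xist, 17 genes were called. Since the groups did not overlap in any of the 127 genes, leaving mice out could not change their sign. Counts of list members are therefore given with all 10 mice and without WT55, each to be read against its own percentage over all genes. Of the 10 fits that left out 1 mouse, only that without WT55 called more than 127 genes.

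Secreted antimicrobial proteins held the leading changes. Retnlb, a goblet-cell resistin-like protein that binds bacterial membranes, read 12.45, 12.15, 12.15, 12.77 and 12.63 in conventional mice, against 5.25, 5.38, 5.70, 6.17 and 5.14 in axenic controls. The groups were 5.97 log2 units apart at their closest. Retnlb was higher by 6.90 (SE 0.20, adjusted p = 2.19e-08), that is 119.6-fold. Reg3g, a lectin that kills Gram-positive bacteria, read 11.35, 10.84, 12.29, 12.58 and 12.75 in conventional mice, against 5.88, 5.25, 5.33, 5.66 and 5.53 in axenic controls. Reg3b, a related lectin that acts on Gram-negative bacteria, read 11.30, 10.52, 11.97, 13.04 and 12.87 in conventional mice, against 6.14, 5.78, 5.91, 6.16 and 6.57 in axenic controls. WT52 and WT53, the mice with high Xist, were the lowest of the conventional mice for both lectins, and the groups did not overlap. The differences were 6.43 (SE 0.34, adjusted p = 5.38e-06) for Reg3g and 5.83 (SE 0.42, adjusted p = 0.000134) for Reg3b. Without the mice with high Xist the adjusted p was 2.85e-07 for Reg3g and 5.74e-06 for Reg3b.

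**Figure D1:**
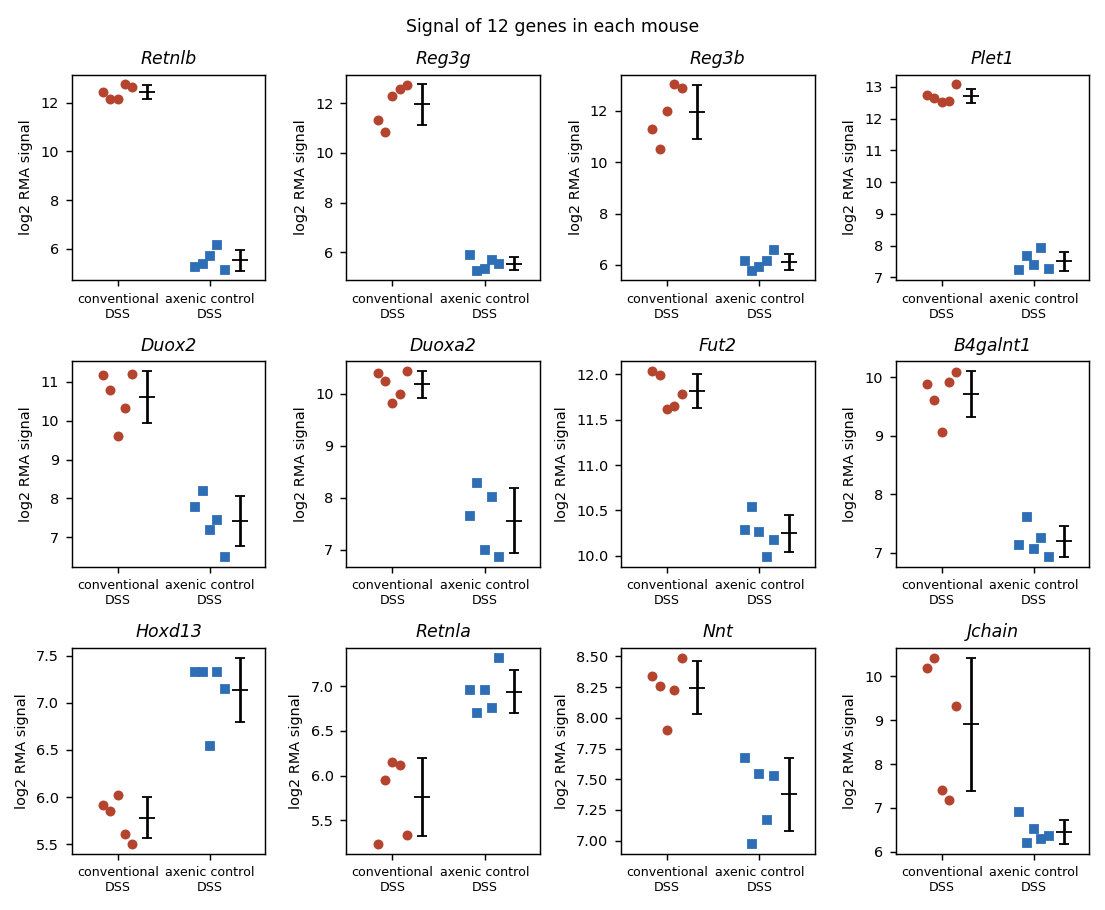
Log2 signal (vertical axes) of 12 genes in each of 5 conventional DSS mice (red circles) and 5 axenic DSS controls (blue squares), with the mean and SD. Retnlb was 12.15 or more in conventional mice and 6.17 or less in axenic controls, whereas Hoxd13 and Retnla were lower in conventional mice.

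Other antimicrobial genes moved less. Pglyrp1, a peptidoglycan recognition protein, read 12.07, 12.17, 11.65, 11.62 and 12.34 in conventional mice, against 10.89, 11.19, 10.65, 10.68 and 10.37 in axenic controls, higher by 1.21 (SE 0.18, adjusted p = 0.0171), and was called in 5 of 10 fits that left out 1 mouse, with an adjusted p of up to 0.066 (without WT53). Retnla, a resistin-like gene of alternatively activated macrophages and epithelium, went the other way and read 5.23, 5.95, 6.15, 6.12 and 5.34 in conventional mice, against 6.96, 6.70, 6.96, 6.76 and 7.32 in axenic controls. It differed by -1.18 (SE 0.20, adjusted p = 0.0339), with no overlap between groups, and was called in 2 of 10 fits that left out 1 mouse, with an adjusted p of up to 0.104 (without CT465). Wfdc2, a secreted protease inhibitor, differed by -1.13 (SE 0.33, adjusted p = 0.0993). Of 27 genes of the list, 4 rose and 1 fell (6 and 4 without WT55), and the list's median log2 difference was 0.201, against -0.0355 over all genes. Without WT55 the list's median was 0.0459, against -0.0482 over all genes.

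The paired epithelial oxidant genes rose. Duox2, the oxidase that releases hydrogen peroxide at the apical surface, read 11.17, 10.80, 9.60, 10.32 and 11.19 in conventional mice, against 7.77, 8.18, 7.19, 7.44 and 6.48 in axenic controls. Duoxa2, its maturation factor and divergent neighbour, read 10.39, 10.25, 9.82, 9.998 and 10.43 in conventional mice, against 7.64, 8.28, 7.0, 8.01 and 6.85 in axenic controls. The groups did not overlap for either gene, and CT229 was the highest control for both. Duox2 rose by 3.21 (SE 0.36, adjusted p = 0.00234) and Duoxa2 by 2.62 (SE 0.27, adjusted p = 0.00144). Without the 2 high-Xist mice the adjusted p was 0.0567 for Duox2 and 0.0417 for Duoxa2. Nos2, inducible nitric oxide synthase, read 10.52, 9.91, 9.90, 7.46 and 10.36 in conventional mice, against 6.90, 7.39, 6.91, 7.93 and 6.74 in axenic controls. WT56 read below CT517, and the other 4 conventional mice lay above all controls. The difference of 2.46 (SE 0.51, adjusted p = 0.0597) did not pass, and without WT56 the adjusted p was 0.000584. Nos2 was called in 2 of 10 fits that left out 1 mouse, with an adjusted p of up to 0.166. Noxa1, an activator of the oxidase Nox1, differed by 1.05 (SE 0.21, adjusted p = 0.051). It was called in 1 of 10 fits that left out 1 mouse, the fit without WT55 (adjusted p = 0.00294). Of 14 oxidant genes 2 rose and 0 fell (5 and 2 without WT55), with a median of 0.52, which was 0.188 after another quantile normalization.

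Genes of regenerating or wound epithelium gave the next largest rises. Plet1, a surface protein of wound-associated and hair follicle epithelium, read 12.73, 12.65, 12.52, 12.56 and 13.09 in conventional mice, against 7.25, 7.68, 7.40, 7.94 and 7.28 in axenic controls, and no axenic control came within 4.58 log2 units of a conventional mouse. It rose by 5.20 (SE 0.16, adjusted p = 2.19e-08), or 36.77-fold. Sptssb, a subunit of serine palmitoyltransferase in sphingolipid synthesis, read 9.95, 8.99, 8.86, 11.22 and 10.81 in conventional mice, against 5.20, 5.65, 5.32, 5.40 and 5.35 in axenic controls, a rise of 4.58 (SE 0.41, adjusted p = 0.000543) with WT53 and WT55 lowest among conventional mice. Clca4b and Clca4a, proteins of the calcium-activated chloride channel regulator family, are close relatives, and how far their probes share transcripts was not tested. Clca4b read 12.83, 12.60, 11.87, 11.02 and 12.76 in conventional mice, against 7.95, 9.93, 6.43, 9.49 and 6.03 in axenic controls. CT229 and CT517 were high among controls, but the groups did not overlap. Clca4b rose by 4.25 (SE 0.73, adjusted p = 0.0339) and was called in 4 of 10 fits that left out 1 mouse, with an adjusted p of up to 0.109 (without WT53). Clca4a, which was not on the list, rose by 2.65 (SE 0.51, adjusted p = 0.047) and was called in 3 of 10 fits that left out 1 mouse, with an adjusted p of up to 0.138 (without WT52). Outside the list, Ccn3, a matricellular signalling protein, rose by 3.45 (SE 0.29, adjusted p = 0.000291). Of 22 genes of this list 3 rose and 1 fell (9 and 1 without WT55). The member that fell was Sprr2d, a cornified envelope protein, which differed by -0.74 (SE 0.14, adjusted p = 0.0482) and was called in 2 of 10 fits that left out 1 mouse, with an adjusted p of up to 0.134 (without CT465). The list's median was 0.439, and 0.279 after another quantile normalization.

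**Figure D2:**
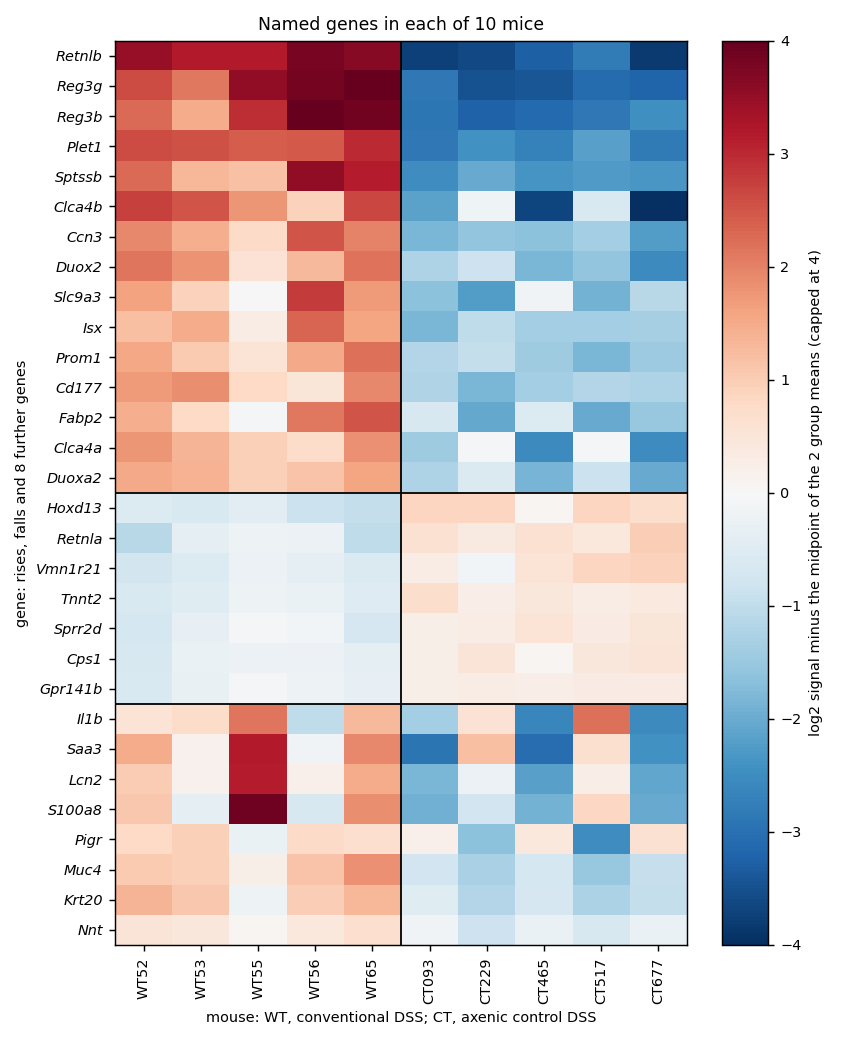
Log2 signal of 30 genes (rows) in each of 10 mice (columns; WT, conventional; CT, axenic control), drawn as the difference from the midpoint of the 2 group means and capped at 4. The top block holds 15 rises and the middle block 7 falls, and in the bottom block CT517 and CT229 were high for Il1b and Saa3 and low for Pigr, while WT55 was high for S100a8.

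Some goblet-cell and glycosylation genes rose in conventional mice. Muc4, a membrane mucin, read 10.09, 9.99, 9.28, 10.18 and 10.87 in conventional mice, against 8.27, 7.73, 8.32, 7.51 and 8.10 in axenic controls. The groups did not overlap, with WT55 the lowest conventional mouse, and Muc4 rose by 2.09 (SE 0.26, adjusted p = 0.00551). Agr2, the disulfide isomerase needed for mucin folding, rose by 0.82 (SE 0.11, adjusted p = 0.00833), Slc12a8, a cation-chloride cotransporter family member, by 1.48 (SE 0.21, adjusted p = 0.0101), and Spdef, a transcription factor of goblet cells, by 1.24 (SE 0.19, adjusted p = 0.0172). Spdef was called in 4 of 10 fits that left out 1 mouse, with an adjusted p of up to 0.066 (without WT53). Muc2, the main secreted gel mucin, averaged 13.95 ± 0.14 in conventional mice and 13.09 ± 0.43 in axenic controls (SD, n = 5 each) and did not pass (0.066 as adjusted p). The groups did not overlap for Muc2, and without WT55 its adjusted p was 0.012. Of 24 goblet genes 5 rose and 0 fell (16 and 2 without WT55), with a median of 0.872, and 0.652 after another quantile normalization. Leaving out any 1 other mouse gave 3 to 4 higher goblet genes. Without the 2 high-Xist mice 0 goblet genes were called, against 17 of all genes. With within-array SD as a covariate 0 were called, against 24 of all genes.

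Among enzymes of mucosal sugars, Fut2, which adds the terminal fucose that gut bacteria can use, read 12.04, 11.99, 11.62, 11.65 and 11.78 in conventional mice, against 10.28, 10.54, 10.26, 9.98 and 10.17 in axenic controls. Every conventional mouse was at least 1.08 above every control, and Fut2 rose by 1.57 (SE 0.13, adjusted p = 0.000291). B4galnt1, a ganglioside synthase, read 9.88, 9.61, 9.07, 9.92 and 10.08 in conventional mice, against 7.14, 7.61, 7.06, 7.25 and 6.92 in axenic controls, again with no overlap, and rose by 2.52 (SE 0.19, adjusted p = 0.00019). Galnt12, which starts mucin O-glycans, rose by 1.65 (SE 0.29, adjusted p = 0.0368), and was called in 1 of 10 fits that left out 1 mouse, with an adjusted p of up to 0.113 (without WT53). B3galt5 differed by 1.56 (SE 0.33, adjusted p = 0.0653) and did not pass. Of 24 such genes 3 rose and 0 fell (16 and 1 without WT55), with a median of 0.93 that was 0.564 after another quantile normalization. Fut2 and B4galnt1 were called in all 10 fits that left out 1 mouse and without the high-Xist mice (adjusted p = 0.00653 for both).

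Some absorptive and surface genes rose. Slc9a3, the apical sodium-proton exchanger, read 10.60, 9.92, 8.96, 11.79 and 10.68 in conventional mice, against 7.35, 6.74, 8.86, 7.10 and 7.88 in axenic controls. WT55 and CT465 were 0.0995 apart, and the rise of 2.81 (SE 0.51, adjusted p = 0.0421) was called in 2 of 10 fits that left out 1 mouse, with an adjusted p of up to 0.127 (without WT65). Dpep1, a brush-border dipeptidase, rose by 2.23 (SE 0.41, adjusted p = 0.0421), Aqp4, a basolateral water channel, by 1.48 (SE 0.26, adjusted p = 0.036), and Krt20, a keratin of differentiated colonocytes, by 1.82 (SE 0.28, adjusted p = 0.0193). These 3 were called in 1, 2 and 4 of the 10 fits that left out 1 mouse. Of 39 absorptive genes 4 rose and 0 fell (13 and 0 without WT55). Over all genes 0.598% rose, and 19.1% without WT55. Leaving out any 1 other mouse gave 0 to 2 higher absorptive genes. Without the 2 high-Xist mice, or with within-array SD as a covariate, 0 were called. The median was 0.64 and 0.266 after another quantile normalization. The tight junction gene Cldn15, a claudin that forms sodium-permeable pores, rose by 1.47 (SE 0.19, adjusted p = 0.00551) and was the 1 called gene of 20 (9 higher and 1 lower without WT55). The median of that list was 0.324 and 0.49 without WT55, and its sign turned to -0.0192 after another quantile normalization.

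Genes that mark position along the gut moved in both directions. Cdx2, an intestinal transcription factor, rose by 1.35 (SE 0.18, adjusted p = 0.00833), with 9.23 ± 0.39 in conventional mice and 7.88 ± 0.21 in axenic controls (SD, n = 5 each). Hoxd13, a homeobox gene of the hindmost gut, read 5.92, 5.85, 6.02, 5.61 and 5.50 in conventional mice, against 7.33, 7.33, 6.54, 7.33 and 7.15 in axenic controls. The groups did not overlap, CT465 was the lowest control, and Hoxd13 fell by 1.35 on the log2 scale (SE 0.17, adjusted p = 0.00551). Hoxd10, of the same cluster, differed by -0.98 (SE 0.25, adjusted p = 0.0878) and did not pass. Cdx2 and Krt20 were the 2 called genes of the 13 colon epithelium markers, whose median was 0.633 and 0.269 after another quantile normalization (6 higher and 0 lower without WT55). Of 17 position genes 1 rose and 1 fell (5 and 3 without WT55). Isx, an intestine-specific homeobox gene, read 9.28, 9.58, 8.37, 10.43 and 9.67 in conventional mice, against 6.25, 7.08, 6.73, 6.73 and 6.75 in axenic controls and rose by 2.76 (SE 0.31, adjusted p = 0.00252). Fabp2, the intestinal fatty acid binding protein, read 9.16, 8.49, 7.63, 9.80 and 10.23 in conventional mice, against 7.06, 5.67, 7.16, 5.68 and 6.18 in axenic controls, and its rise of 2.72 (SE 0.49, adjusted p = 0.0397) was called in 1 of 10 fits that left out 1 mouse, with an adjusted p of up to 0.114 (without WT52). Fabp2 was the only called gene of 14 small intestine markers, whose median was -0.13, and 1 was higher and 0 lower without WT55. The labels do not say where along the colon each piece was taken, and the part of position in these results was not tested.

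Prom1, a membrane protein of stem and progenitor cells that is also found on differentiated epithelium, read 10.98, 10.47, 9.98, 10.93 and 11.63 in conventional mice, against 8.24, 8.48, 8.0, 7.59 and 7.97 in axenic controls. It rose by 2.74 (SE 0.28, adjusted p = 0.00144) without overlap and was the 1 called gene of 23 crypt stem and Wnt target genes, whose median was -0.15 (4 higher and 6 lower without WT55). Ascl2, a transcription factor of crypt stem cells, differed by -0.73 (SE 0.15, adjusted p = 0.0551) in the other direction and did not pass. None of 31 cell cycle genes was called, with all mice or without WT55.

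S100a8, Il1b and Saa3 varied widely within both groups and were not called, whereas Cd177 was called. Cd177, a neutrophil surface protein that is also made elsewhere, read 10.88, 11.03, 9.97, 9.66 and 11.09 in conventional mice, against 7.95, 7.34, 7.80, 8.0 and 7.94 in axenic controls, rising by 2.72 (SE 0.28, adjusted p = 0.00155) without overlap. S100a8, a calprotectin subunit of neutrophils, read 8.54, 7.07, 11.37, 6.85 and 9.33 in conventional mice, against 5.55, 6.70, 5.57, 8.31 and 5.47 in axenic controls. WT55 was the highest, WT53 and WT56 lay below CT517, and the groups overlapped, with a difference of 2.31 (SE 0.84, adjusted p = 0.123). Il1b, an inflammatory cytokine, read 9.58, 9.75, 11.17, 8.0 and 10.31 in conventional mice, against 7.67, 9.60, 6.40, 11.23 and 6.48 in axenic controls, so that the control CT517 was the highest of all 10 mice. Its difference was 1.49 (SE 0.91, adjusted p = 0.255). CT229 and CT517 were also the 2 highest controls for the acute phase gene Saa3, which read 11.01, 9.70, 12.70, 9.39 and 11.47 in conventional mice, against 6.60, 10.73, 6.49, 10.16 and 7.10 in axenic controls and differed by 2.64 (SE 0.94, adjusted p = 0.12). Of 18 neutrophil genes 2 rose and 0 fell, both counts the same without WT55, with Pglyrp1 and Cd177 the called members. None of 21 acute phase, 26 cytokine, 36 chemokine and 20 macrophage genes was called with all mice. Without WT55 there were 1 higher and 2 lower acute phase, 1 higher and 3 lower cytokine, 4 higher and 2 lower chemokine, and 0 higher and 3 lower macrophage genes. Lcn2, an iron-scavenging acute phase protein, differed by 2.41 (SE 0.64, adjusted p = 0.0906), the T-cell chemokine Cxcl9 by 2.42 (SE 0.74, adjusted p = 0.104) and the macrophage and neutrophil chemokine Ccl6 by 0.95 (SE 0.19, adjusted p = 0.0569). Without WT55 all 3 passed, with adjusted p = 0.0232 for Lcn2, 0.0488 for Cxcl9 and 0.0045 for Ccl6. That fit called 37.2% of all genes. Without the 2 high-Xist mice the adjusted p was 0.422 for Lcn2, 0.531 for Cxcl9 and 0.438 for Ccl6. The list medians were 0.77 for neutrophil, 0.457 for acute phase, -0.0249 for cytokine, 0.0931 for chemokine and 0.26 for macrophage genes. Without WT55 the same medians were 0.376, 0.322, -0.204, 0.00952 and 0.125, and after another quantile normalization 0.889, 0.107, 0.0538, 0.0693 and 0.288, so that the sign of the cytokine median changed.

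Genes of microbe sensing and of the interferon response had mostly positive differences. Zc3h12a, an RNase that limits inflammatory transcripts, rose by 0.93 (SE 0.16, adjusted p = 0.036), and Casp4, the caspase that binds bacterial lipopolysaccharide, rose by 1.32 (SE 0.25, adjusted p = 0.046). They were called in 3 and 1 of the 10 fits that left out 1 mouse. Nfkbiz, a nuclear regulator of NF-kB targets, differed by 1.1 (SE 0.22, adjusted p = 0.0521), and Casp1 by 1.40 (SE 0.44, adjusted p = 0.108). Of 26 sensing genes 2 rose and 0 fell (11 and 0 without WT55), with a median of 0.511 and 0.238 after another quantile normalization. Leaving out any 1 other mouse gave 0 to 2 higher sensing genes. Without the 2 high-Xist mice, or with within-array SD as a covariate, 0 were called. Irf1, an interferon-induced transcription factor, read 10.73, 10.47, 9.70, 9.74 and 10.16 in conventional mice, against 9.10, 8.62, 8.5, 8.33 and 9.09 in axenic controls, with no overlap. It rose by 1.43 (SE 0.23, adjusted p = 0.0216) and was called in 4 of 10 fits that left out 1 mouse, with an adjusted p of up to 0.0822 (without WT53). It was the 1 called gene of 26 interferon-stimulated genes, 25 of which had a positive difference, with a median of 0.895 and 0.626 after another quantile normalization. Without WT55, 20 of the 26 were called higher, in a fit that called 19.1% of all genes higher. Leaving out any 1 other mouse gave 0 to 3 higher. Without the 2 high-Xist mice, or with within-array SD as a covariate, 0 interferon-stimulated genes were called. Irgm1 differed by 1.62 (SE 0.36, adjusted p = 0.0729) and Oasl2 by 1.56 (SE 0.37, adjusted p = 0.0782). None of 12 genes of MHC class I processing was called, among them Psmb8 at 1.25 (SE 0.32, adjusted p = 0.0878) and Tap1 at 1.22 (SE 0.35, adjusted p = 0.0968), and without WT55, 9 were higher and 1 lower. The median of the class I genes was 0.629, and 0.359 after another quantile normalization. WT52 and WT53, the mice with high Xist, were the highest of the 10 mice for Irf1, Psmb8 and Tap1. Without both, the class I median was 0.379 and Tap1 differed by 0.707 (adjusted p = 0.525 in limma). None of 9 MHC class II genes was called either way, with all mice or without WT55. The sign of their median changed with another quantile normalization (0.184 and -0.0255), and also without the high-Xist mice (-0.29).

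Jchain, the joining chain of the IgA and IgM that plasma cells secrete, read 10.20, 10.41, 7.41, 7.19 and 9.32 in conventional mice, against 6.90, 6.19, 6.51, 6.28 and 6.36 in axenic controls. All conventional mice lay above all controls, but WT55 and WT56 stood within 0.51 of the highest control, and the difference of 2.46 (SE 0.59, adjusted p = 0.079) did not pass. Without WT55 the adjusted p was 0.00939. WT52 and WT53, the highest for Jchain, were the mice with high Xist, and without both the adjusted p was 0.438. Pigr, the epithelial receptor that carries polymeric IgA into the lumen, read 12.68, 12.84, 11.63, 12.65 and 12.56 in conventional mice, against 12.10, 10.24, 12.33, 9.40 and 12.50 in axenic controls. CT229 and CT517 were far below the other controls, and the groups overlapped, with a difference of 1.16 (SE 0.57, adjusted p = 0.183). None of 26 B and plasma cell genes was called (4 higher without WT55), and none of 29 T and NK cell genes (1 higher and 2 lower without WT55).

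Some sterol and fatty acid genes rose, and the medians of the metabolic lists were nearer 0 after another quantile normalization. Lss, a late enzyme of cholesterol synthesis, rose by 1.25 (SE 0.23, adjusted p = 0.043), and Elovl6, which lengthens fatty acids, rose by 1.00 (SE 0.17, adjusted p = 0.0305). They were called in 2 and 1 of the 10 fits that left out 1 mouse. Fdft1, squalene synthase, differed by 1.22 (SE 0.24, adjusted p = 0.0545). Of 21 sterol and fatty acid synthesis genes 2 rose and 0 fell (15 and 0 without WT55), with a median of 0.693 and 0.271 after another quantile normalization. Leaving out any 1 other mouse gave 0 to 2 higher and 0 to 1 lower. Without the 2 high-Xist mice, or with within-array SD as a covariate, 0 were called. Acads, an acyl-CoA dehydrogenase of short chains, differed by 0.97 (SE 0.21, adjusted p = 0.0696). Fabp2 was the called gene among 26 genes of fatty acid oxidation and ketogenesis (13 higher and 2 lower without WT55), with a median of 0.456 and 0.123 after another quantile normalization. None of 27 respiratory chain subunits was called, although all 27 had a positive difference, and 22 were called higher without WT55. Their median was 0.538, and 0.206 after another quantile normalization. These are bright genes, with a mean level of 10.07 to 11.08 in conventional mice. The 4977 genes with the highest mean signal had a median of 0.352. None of 46 xenobiotic, 28 chaperone and 16 clock genes was called with all mice. Without WT55, 7 xenobiotic genes were higher and 3 lower, 17 chaperone genes were higher and 1 lower, and no clock gene was called.

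**Figure D3:**
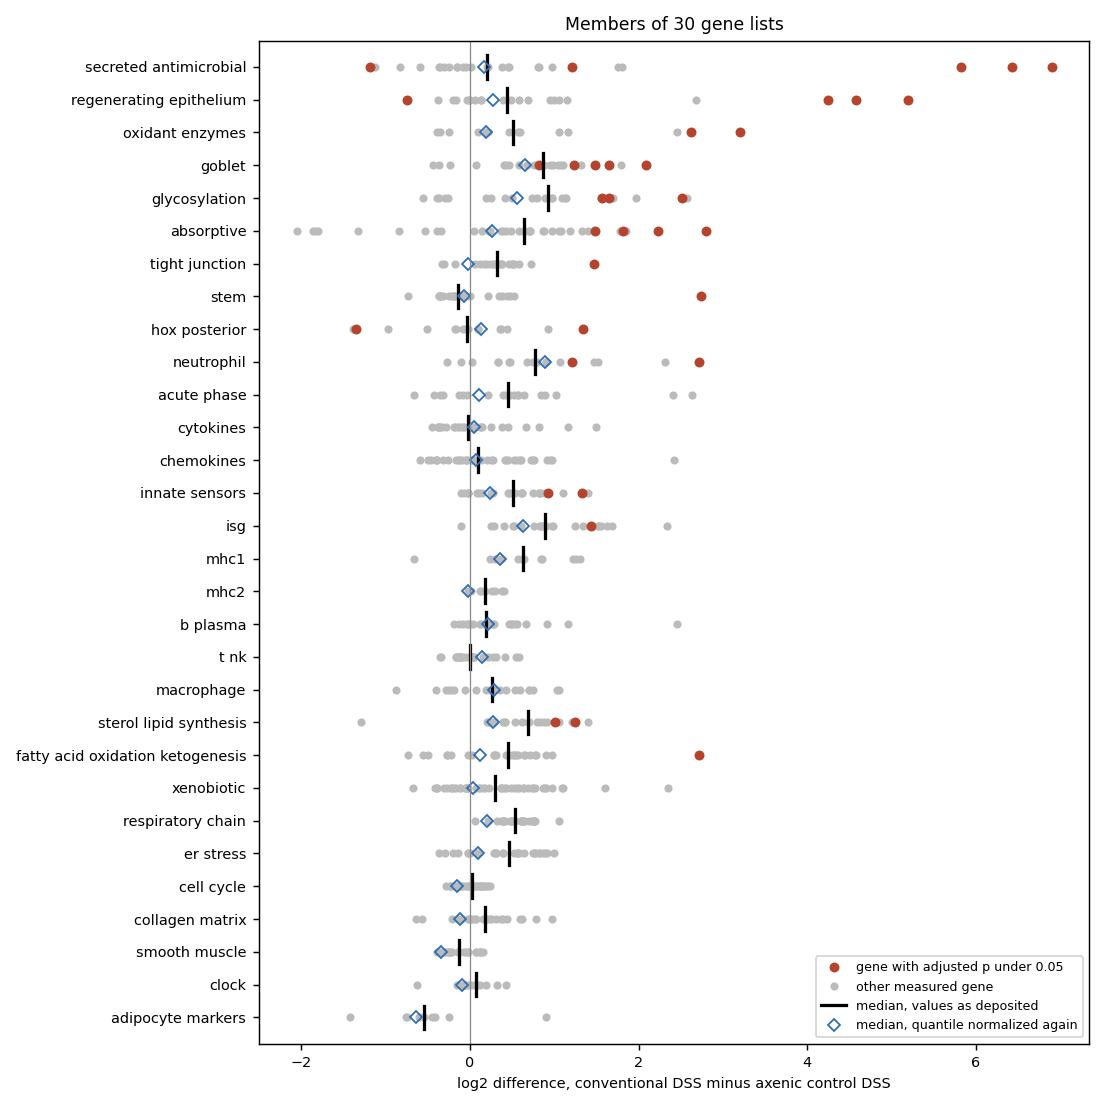
Log2 difference, conventional DSS minus axenic control DSS (horizontal axis), of each measured gene in 30 lists (rows). Red points passed an adjusted p of 0.05, black bars are list medians and open diamonds the medians after another quantile normalization, which lay nearer 0 for the respiratory chain (0.206, against 0.538).

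The remaining falls were small. Tnnt2, a troponin of striated muscle, read 6.80, 6.92, 7.22, 7.15 and 6.88 in conventional mice, against 8.11, 7.67, 7.85, 7.69 and 7.79 in axenic controls. Each control was above each conventional mouse, and Tnnt2 fell by 0.83 on the log2 scale (SE 0.12, adjusted p = 0.0134). Cps1, a urea cycle enzyme also made by gut epithelium, fell by 0.70 (SE 0.12, adjusted p = 0.036), Gpr141b, a G-protein-coupled receptor, by 0.59 (SE 0.11, adjusted p = 0.043) and Vmn1r21, a vomeronasal receptor at the 7.95th percentile of mean signal, by 0.99 (SE 0.19, adjusted p = 0.0477). Of the 10 fits that left out 1 mouse, Tnnt2 was called in 8, Cps1 in 2, Gpr141b in 1 and Vmn1r21 in 2. With within-array SD as a covariate none of the 7 named falls was called, and 10 of the 15 named rises were.

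Nnt, the mitochondrial transhydrogenase, is deleted in part in the C57BL/6J substrain and intact in C57BL/6N, so that it marks a substrain difference. It read 8.34, 8.26, 7.90, 8.23 and 8.49 in conventional mice, against 7.67, 6.97, 7.54, 7.17 and 7.53 in axenic controls. The groups did not overlap, and Nnt was higher by 0.87 (SE 0.16, adjusted p = 0.0407). It was called in 2 of 10 fits that left out 1 mouse, with an adjusted p of up to 0.118 (without WT65), and the difference ranged from 0.622 to 1.13 over the alternatives. Untreated conventional wild-type mice read 8.41 to 8.84. The 2 Reg3a-transgenic conventional groups read 7.28 to 7.46 under DSS and 7.19 to 7.55 untreated, and axenic recipients read 6.68 to 7.04 with transgenic and 6.96 to 7.62 with wild-type flora. The conventional wild-type mice were thus the only groups with all values above 7.67, the highest of the axenic controls, although the labels give 1 strain for all. Of 7 measured genes on the substrain list Nnt was the 1 called, and without WT55 4 were higher and 1 lower. Entpd4 differed by 0.52 (SE 0.14, adjusted p = 0.0951) and Wdfy1 by 0.39 (SE 0.12, adjusted p = 0.107). The part of substrain in the other differences was not tested.

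Counts of markers of other tissues without WT55 stand beside 37.2% of all genes called in that fit (19.1% higher, 18.1% lower). With all mice none of 15 exocrine pancreas, 16 squamous, 9 adipocyte and 3 red blood cell markers was called, nor any of 16 mast cell and eosinophil, 27 enteroendocrine, 18 enteric nervous, 16 endothelial, 24 collagen, 15 metalloproteinase and 21 smooth muscle genes. Without WT55 all 3 red blood cell markers were lower, 4 adipocyte markers were lower and 1 higher, 4 squamous markers lower and 1 higher, and 1 pancreas marker lower. In the same fit 6 mast cell and eosinophil genes were lower and 3 higher, 9 enteroendocrine genes lower and 2 higher, and 2 enteric nervous genes lower and 2 higher. It called 1 metalloproteinase gene and 1 smooth muscle gene lower, and no endothelial or collagen gene. The mean level of the adipocyte markers was 6.888 to 7.546 in conventional mice and 7.077 to 8.24 in axenic controls. Adipoq, made by fat cells, read 5.52, 6.10, 6.19, 6.67 and 5.99 in conventional mice, against 6.76, 6.91, 7.22, 5.91 and 7.41 in axenic controls, with overlapping groups and a difference of -0.75 (SE 0.28, adjusted p = 0.126). The part of attached fat in any result was not tested.

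Recipients of wild-type flora give a further level for the same genes. These mice were axenic, received intestinal flora of wild-type donors and drank the same DSS 3 weeks later. Retnlb averaged 12.43 ± 0.28 in conventional mice, 11.47 ± 0.99 in flora recipients, 5.14 ± 0.42 in untreated mice and 5.53 ± 0.42 in axenic controls (SD, n = 5 each; untreated mice were conventional and wild-type). Reg3g averaged 11.96 ± 0.83 in conventional mice, 10.95 ± 2.26 in flora recipients, 5.38 ± 0.26 in untreated mice and 5.53 ± 0.25 in axenic controls. The means of both genes were high in conventional mice and flora recipients and low in untreated mice and axenic controls. Plet1 averaged 12.71 ± 0.23 in conventional mice, 13.02 ± 0.27 in flora recipients, 7.32 ± 0.40 in untreated mice and 7.51 ± 0.29 in axenic controls. Fut2 averaged 11.82 ± 0.19 in conventional mice, 12.15 ± 0.12 in flora recipients, 10.56 ± 0.09 in untreated mice and 10.25 ± 0.20 in axenic controls. Jchain averaged 8.90 ± 1.52 in conventional mice, 10.43 ± 0.57 in flora recipients, 9.25 ± 0.79 in untreated mice and 6.45 ± 0.28 in axenic controls, so that the mean of the axenic controls alone was below 7.19, the lowest conventional mouse. Nnt averaged 8.24 ± 0.22 in conventional mice, 7.32 ± 0.26 in flora recipients, 8.65 ± 0.18 in untreated mice and 7.37 ± 0.29 in axenic controls, with flora recipients at the level of the controls.

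Against the same axenic controls, 13401 genes (67.3%) were called in flora recipients, and the comparisons share those 5 control mice. The difference from controls was 5.95 (SE 0.41, adjusted p = 2.49e-05) for Retnlb, 5.51 (SE 0.16, adjusted p = 1.59e-08) for Plet1, 3.03 (SE 0.24, adjusted p = 4.96e-05) for Duoxa2, 1.90 (SE 0.11, adjusted p = 1.13e-05) for Fut2 and 3.98 (SE 0.24, adjusted p = 1.51e-05) for Jchain in flora recipients, and -0.06 (SE 0.16, adjusted p = 0.764) for Nnt. Conventional mice set directly against flora recipients gave 0 called genes (0%) in limma, with 1634 at an unadjusted p under 0.05. In that comparison Retnlb differed by 0.95 (SE 0.40, adjusted p = 0.567), Reg3g by 1.01 (SE 0.92, adjusted p = 0.611), Plet1 by -0.31 (SE 0.15, adjusted p = 0.567), Jchain by -1.52 (SE 0.62, adjusted p = 0.567) and Nnt by 0.92 (SE 0.15, adjusted p = 0.285). A p that misses the threshold does not show that the 2 groups were alike.

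**Figure D4:**
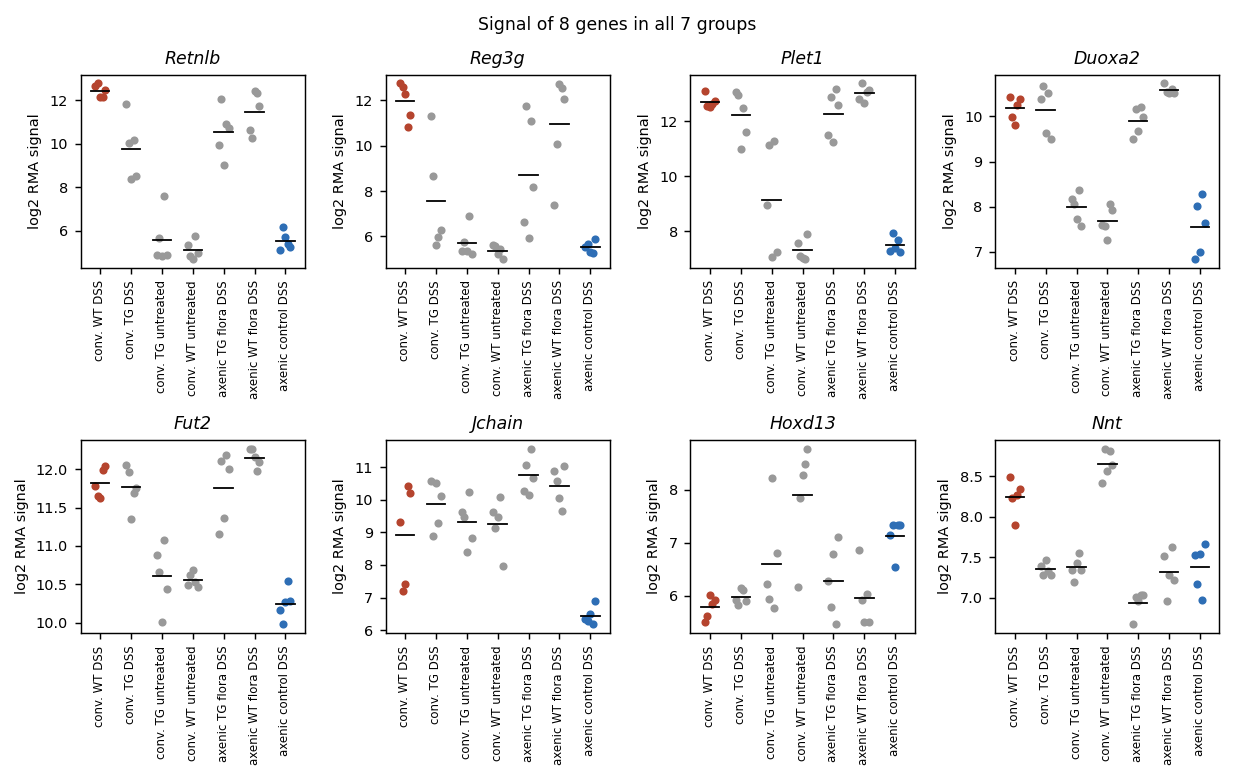
Log2 signal (vertical axes) of 8 genes in the 35 mice, 5 in each of 7 groups (TG, Reg3a-transgenic; flora, transplanted axenic mice), with bars at the group means. Conventional wild-type DSS mice are red and axenic DSS controls blue, and Nnt was above 7.67 in every conventional wild-type mouse and in no other.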

How the data were processed

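The authors hybridised 200 ng of total RNA per mouse, per the labels. The deposited values are log2 signal, normalized by the authors with RMA in Affymetrix Expression Console 1.1, per the submitters' processing notes. Deposited log2 values ran from 3.78 to 14.4, and 35 value columns were mapped to samples by title. Of 28090 probe sets, 21639 had 1 gene symbol, 1539 had several and 4912 were not listed. The probe set with the highest mean over 35 arrays stood for each of 19908 genes. Symbols were updated through a RefSeq table of GRCm38.p6 (21548 probe sets matched).

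The 5 conventional and 5 axenic control arrays were fitted in limma 3.58.1 (R 4.3.3; lmFit and eBayes, two-sided) without covariates, and p-values were adjusted by Benjamini-Hochberg over the 19908 genes. Calls required an adjusted p under 0.05. SE is the moderated standard error. The number of arrays limits the precision, and p-values measure the spread between mice. Other groups were fitted in the same way, pair by pair. Summaries and figures used Python 3.11.15 with pandas 2.3.3, numpy 2.4.6 and matplotlib 3.10.9. The groups, genes and lists (42 lists with 935 genes, of which 843 were measured) were chosen with earlier results of these data known, and no test was made on a list. Genes that could be named were the 15 largest rises and falls among called genes without overlap (7 falls had an eligible name), the 6 members of each list with the smallest p (every member of a short list), and a fixed set of colitis genes. Of these 264 genes, 68 were named, among them all 15 rises and 7 falls. The choice of the rest followed no stated rule.

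Alternatives were another quantile normalization, a common within-array SD, array weights, all 35 arrays in 1 model, trended robust variance, averaging each gene's probe sets, only genes brighter than the 40th percentile, covariates for smooth muscle, posterior Hox level or within-array SD, leaving out arrays with Xist above 8, and leaving out each mouse.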

Additional observations from a re-analysis of the deposited data

Results flagged for a closer look

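In each group of 5 mice, the gap between the most extreme mouse and its nearest neighbour, divided by the range of the group, was set against Dixon's critical value of 0.71. Of 134 sets (67 genes in 2 groups), 10 passed, and chance flags about 1 in 20 groups. WT55 was the mouse in 5 of these. Among conventional mice, WT55 read 8.27 for Slc12a8 (others 9.19 to 9.52), 8.25 for Galnt12 (others 9.48 to 9.87), 10.72 for Krt20 (others 11.88 to 12.27), 8.90 for Acads (others 9.69 to 9.96) and 11.63 for Pigr (others 12.56 to 12.84), low in each case. WT56 read 7.46 for Nos2 (others 9.90 to 10.52), and WT52 read 5.92 for Cps1 (others 6.23 to 6.34). Among axenic controls, CT517 was high for Nfkbiz at 8.47 (others 7.38 to 7.67) and for Wdfy1 at 7.21 (others 6.68 to 6.83), and CT465 was low for Hoxd13 at 6.54 (others 7.15 to 7.33).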

How the results depend on the processing

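Of the 127 called genes (119 higher, 8 lower in conventional mice), leaving out 1 mouse gave 37 (without WT53) to 7398 (without WT55), with 36 to 3799 higher and 1 to 3599 lower. The cause of the jump without WT55 was not tested. All 35 arrays in 1 model called 4407 (2305 higher, 2102 lower) and array weights, which gave WT53 a weight of 11.2, called 11521 (5476 higher, 6045 lower). The posterior Hox covariate called 916 (723 higher, 193 lower), and testing only genes brighter than the 40th percentile 201 (196 higher, 5 lower) among the 11945 tested. The within-array SD covariate called 24 (21 higher, 3 lower). Without the 2 high-Xist mice, which left 3 against 5, 17 were called, all higher, and 0 lower. Falls numbered 50 after another quantile normalization, 25 with a common within-array SD and 24 with trended robust variance. The higher share, 93.7% as deposited, was 71.6% after another quantile normalization, 82% with a common SD, 84.1% with trended robust variance, 78.9% with the Hox covariate, 52.3% in the model of 35 arrays, 47.5% with array weights and 51.4% without WT55. The quantile normalization and the common SD put the median of all genes at -0.0061 and 0.0525, against -0.0355. The mean of probe sets and the smooth muscle covariate kept all 3 counts within 1.5 times. None of the 68 genes named changed sign under any alternative run. For called genes, whose groups did not overlap, this was fixed in advance where mice were left out. No paired analysis was possible because the groups share no replicate numbers. Dim genes set a limit, since genes at or below the median of mean signal held 8 of the 127 calls.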

Other observations

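Matrix metalloproteinases and their inhibitors were brighter in some conventional mice without any called gene. The mean level of the 15 measured genes ran from 7.117 to 9.221 in conventional mice and from 6.892 to 8.381 in axenic controls, and the median log2 difference was 0.755 (0.402 without WT55 and 0.318 after another quantile normalization). Enteroendocrine genes had 20 of 27 differences below 0, with a median of -0.212 that was -0.084 after another quantile normalization. Chaperones of the endoplasmic reticulum and the heat shock response had 22 of 28 differences above 0. Their median of 0.458 was 0.0939 after another quantile normalization, and the 4977 genes with the highest mean signal had a median of 0.352 as deposited. The 15 exocrine pancreas markers had a mean level of 6.979 to 8.838 in conventional mice and 7.13 to 8.733 in axenic controls.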
